A study of Mus musculus with 4 samples.

Results

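Genes of double-stranded RNA sensing and of the type I interferon response were examined in mouse quadriceps that carries transgenes for NF90 and NF45, against wild-type muscle. The list held 38 symbols, chosen by name for their known roles and with earlier results of these data known. The shares of members given below therefore describe the list and do not test it. Of these, 34 had at least 1 probe set paired with that gene alone, out of 22180 genes represented in this way, and the brightest such probe set stood for the gene. Oas1a, Dtx3l and Ifi27l2a were paired only with probe sets that also name a second gene, and Ifi44 with none in the annotation used here, so these 4 were not analysed here. By role, the 34 fell into 8 sensors and adaptors, 7 proteins that bind double-stranded RNA as enzymes or their close relatives, and 19 downstream effectors.

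Total RNA from 1 quadriceps sample per mouse was read on whole-transcript expression arrays. The groups were wild type (WT, 2 mice) and NF90-NF45 double transgenic (dbTg, 2 mice). In each group replicate 1 was male and replicate 2 was female. The male WT mouse was aged 17 to 18 weeks, against 16 weeks for the remaining 3. The sources used here do not name the promoter of the transgenes, the founder lines or the strain. Each value is an RMA summary of 1 probe set on the log2 scale, so a difference of 1 is 2-fold. The number of arrays limits their precision, and no call of presence accompanies them.

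Double-stranded RNA is a usual product of viral replication and is rare in the cytoplasm of healthy cells. RIG-I and MDA5 detect it in the cytoplasm and signal through the mitochondrial adaptor MAVS, while TLR3 detects it in endosomes. Both routes switch on type I interferon, which acts through its receptor, STAT proteins and IRF9 to raise a large set of interferon-stimulated genes. Several sensors belong to that set themselves. NF45, the partner of NF90 in these mice, is the product of Ilf2. Ilf2 read 5.03 and 5.04 in WT and 10.36 and 10.16 in dbTg, so the transgenic samples matched their labels. The sources used here do not say whether the transgenic transcript is among those these probes detect.

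Most of the interferon-stimulated genes read higher in both dbTg muscles than in either WT muscle, but few passed the test across all genes. Both dbTg arrays lay above both WT arrays for 26 of the 34 members, against 23.8% of all 22180 genes. Among the 13308 genes that passed the filter on low values used below, the share was 33.7%. Both dbTg arrays lay below both WT arrays for 0 members, against 24.1% of all genes and 2173 of the 13308. The median difference of the 34 members was 0.98, against -0.02 over all genes and 0.09 over the 13308. A difference of at least 2-fold was found for 17 of the 34, against 2.57% of all genes.

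Of the members, 33 passed a filter on low values and were tested with limma. The remaining one was Mx1. For Ddx58 and Mx2 the WT mean lay under the filter, at 1.48 on the log2 scale, and the dbTg arrays carried them past it. Zbp1 and Ifitm3 rose at an adjusted p under 0.05, as did 2.01% of the 13308 tested genes, and 0 members fell, against 0.203%. Parp14 and Rtp4 lay just outside the threshold, with adjusted p = 0.0512 and 0.0559. With replicate number, which here is also sex, as a block in the fit, 0 members were called. At an unadjusted p under 0.05, 23 members were higher and 0 were lower, against 14.0% and 4.64% of all tested genes. With no filter 23 of the 34 were higher in this sense, against 9.20% of all genes, and after quantile normalization 20 of the 33, against 9.63%. A fit with 1 array dropped leaves a single array in that group, so only sizes are compared here. Calls in such fits shifted over all genes and not among the members alone. The median difference of the tested members was 1.22 with dbTg replicate 1 dropped, against 0.09 over all tested genes. With dbTg replicate 2 dropped it was 0.78, against 0.09. Dropping the male WT array gave 1.01, against 0.10, and dropping the female one gave 0.99, against 0.09.

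**Figure D1:**
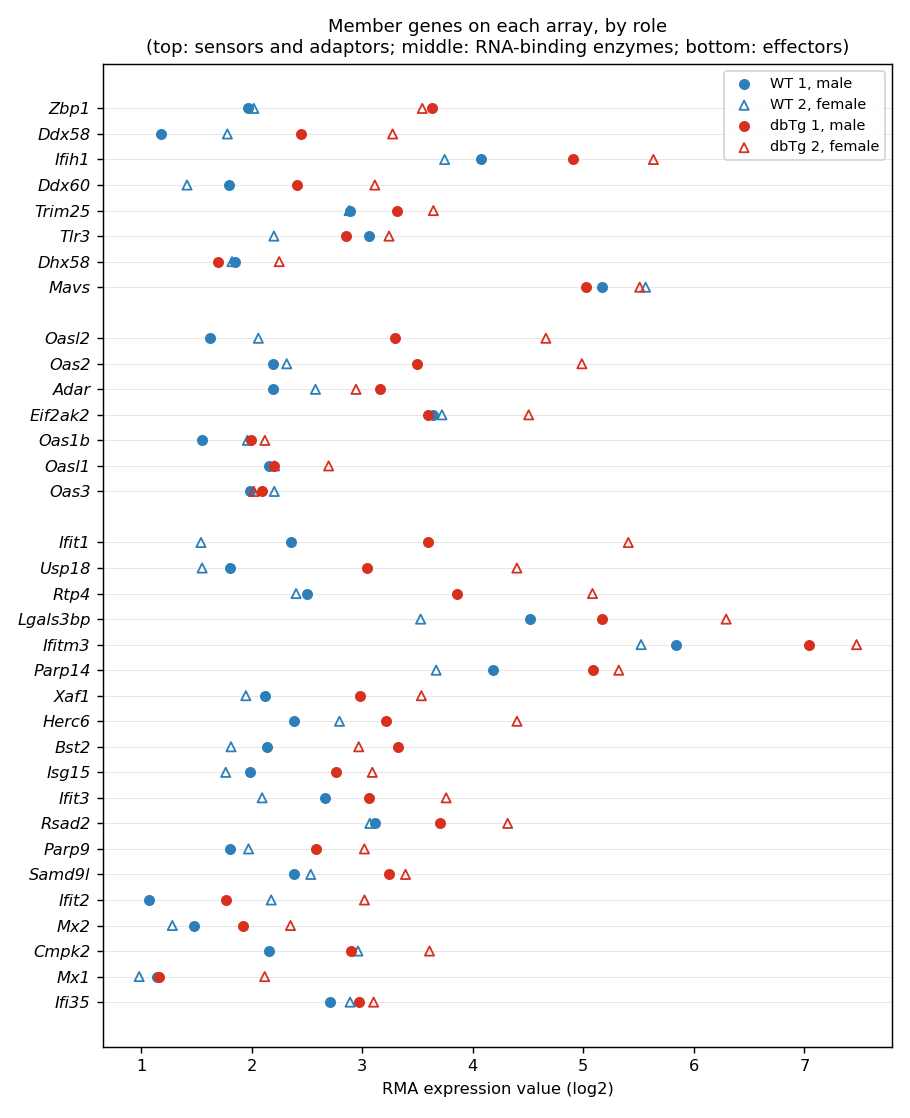
RMA expression value on the log2 scale of each of the 34 members on each of the 4 arrays (blue: WT, red: dbTg, filled circles: males, open triangles: females), grouped by role and sorted by difference. Both red symbols lie right of both blue symbols for 26 genes, and the red triangle lies right of the red circle for 30.

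The promoters of several members carry the letters to which the interferon-activated factor ISGF3 and the IRFs are known to bind. RefSeq windows (build GRCm38.p6) from 250 bases before to 50 bases after the start site were found for 27 of the 38 symbols. The first motif searched was GAAA, then any 2 bases, then GAAA, here called the paired GAAA motif. On either strand, 12 of these 27 held it, against 3.99% of 27025 genes with a window. A second motif, TTCNNNGAA with N for any base, was found in 7 of the 27, against 9.55% of the 27025. In Bst2 and Ifitm3 its matches overlapped those of the paired GAAA motif. All that follows concerns the paired GAAA motif alone. A match is a description of the letters and does not show that a factor binds there. The stretches below show how the letters repeat in members that differ in their response, with the paired GAAA motif or its reverse complement in capitals. The first 7 end before the start site.
Isg15, chr4:156200860-156200911, minus strand: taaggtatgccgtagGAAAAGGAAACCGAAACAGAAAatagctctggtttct
Ifit1, chr19:34640770-34640828, plus strand: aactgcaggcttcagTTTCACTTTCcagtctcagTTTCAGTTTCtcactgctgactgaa
Ifit3, chr19:34583358-34583431, plus strand: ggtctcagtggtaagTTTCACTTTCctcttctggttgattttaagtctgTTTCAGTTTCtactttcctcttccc
Bst2, chr8:71537572-71537617, minus strand: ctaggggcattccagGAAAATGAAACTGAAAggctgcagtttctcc
Ddx60, chr8:61928019-61928086, plus strand: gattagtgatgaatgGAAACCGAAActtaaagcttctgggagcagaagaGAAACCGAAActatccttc
Rsad2, chr12:26456548-26456587, minus strand: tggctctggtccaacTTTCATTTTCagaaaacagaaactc
Oas3, chr5:120777710-120777749, minus strand: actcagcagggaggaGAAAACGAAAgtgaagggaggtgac
Ddx58, chr4:40239804-40239833, minus strand: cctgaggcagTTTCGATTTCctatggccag
Ifih1, chr2:62646206-62646233, minus strand: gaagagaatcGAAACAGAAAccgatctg
Ifitm3, chr7:141010715-141010743, minus strand: gGAAAAGGAAActtctgaGAAACCGAAAc
Eif2ak2, chr17:78882535-78882564, minus strand: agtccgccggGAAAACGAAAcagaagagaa

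In Isg15 3 matches ran into each other between positions -78 and -57 from the start site. Ifit1 and Ifit3 each held 2 on the opposite strand. In Ddx58, Ifih1, Ifitm3 and Eif2ak2 the first base of the match lay at position 3, 33, 3 and 19 after the start. Small and large differences were found both with and without the letters. Oas3 and Eif2ak2 held them, with differences of -0.04 and 0.37, and the window of Oasl2, with a difference of 2.14, did not. Over the 11 members with a probe set of their own and the letters, the median difference was 1.16 and 9 had groups that did not overlap. Over the 13 whose windows lacked them, it was 0.69, with 8. Among all genes, 23.8% had higher groups that did not overlap. The members with no window, among them Zbp1, Oas2, Usp18, Rtp4 and Parp14, are in neither set. Whether the letters go with the size of the difference was not tested.

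The cytoplasmic sensors RIG-I and MDA5 read higher in dbTg. Ddx58, which encodes RIG-I, read 1.18 and 1.78 in WT and 2.44 and 3.27 in dbTg. The groups did not overlap, and the dbTg female was the higher of its group. Its difference was 1.38 (SE 0.34, adjusted p = 0.0957; range over the alternatives 0.0327 to 0.471). Ifih1, which encodes MDA5, the sensor of long double-stranded RNA, read 4.07 and 3.75 in WT and 4.91 and 5.63 in dbTg. Here too both dbTg arrays lay above both WT arrays, the female the higher. Its difference was 1.36 (SE 0.28, adjusted p = 0.0645; range over the alternatives 0.0259 to 0.422). Dhx58 encodes LGP2, the third protein of this family, which lacks the signalling domain. Dhx58 read 1.84 and 1.82 in WT and 1.69 and 2.25 in dbTg, so its groups overlapped (difference 0.14, SE 0.24, adjusted p = 0.813). The sign of its difference turned to -0.11 after median centring.

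Zbp1, the sensor of Z-form nucleic acid that can trigger necroptosis, rose 3.02-fold. It read 1.96 and 2.02 in WT and 3.63 and 3.54 in dbTg, with the replicates of each group close together. The difference was 1.60 (SE 0.21, adjusted p = 0.0220), the most precise among the sensors, and 1.55 to 1.64 when 1 array was left out. The call ended without either dbTg array (0.193 without dbTg replicate 1 and 0.228 without dbTg replicate 2, range over all alternatives 0.0107 to 0.228), after quantile normalization (0.0512) and when replicate number was a block (0.0724). Ddx60, a helicase described as a helper of RIG-I, read 1.80 and 1.41 in WT and 2.41 and 3.11 in dbTg. Its groups did not overlap, with a difference of 1.16 (SE 0.29, adjusted p = 0.101). Trim25, the ubiquitin ligase described as an activator of RIG-I, read 2.89 and 2.88 in WT and 3.31 and 3.64 in dbTg, a smaller gap between groups that also did not overlap (difference 0.59, SE 0.22, adjusted p = 0.225).

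The adaptor and the endosomal sensor did not separate the groups. Mavs, the adaptor on which both RIG-I and MDA5 depend, read 5.17 and 5.56 in WT and 5.03 and 5.51 in dbTg. In each group the female was higher, and the groups overlapped (difference -0.10, SE 0.24, adjusted p = 0.876). Tlr3 read 3.06 and 2.20 in WT and 2.85 and 3.24 in dbTg, with the WT male between the dbTg arrays (difference 0.41, SE 0.33, adjusted p = 0.562). These tests do not show that either gene is equal in both genotypes. Over the 8 sensors and adaptors the median difference was 0.87. Of the 8, 5 had higher groups that did not overlap, against 23.8% of all genes.

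Among the proteins that bind double-stranded RNA, the oligoadenylate synthetase family split. Its enzymes make the second messenger that activates RNase L. Oas2 read 2.19 and 2.32 in WT and 3.49 and 4.99 in dbTg. The WT arrays were close, and the dbTg arrays lay well above them and apart from each other (difference 1.99, SE 0.46, 3.96-fold, adjusted p = 0.0817). Oasl2, an Oas-like protein, read 1.63 and 2.06 in WT and 3.30 and 4.66 in dbTg, again with the dbTg female highest (difference 2.14, SE 0.44, 4.39-fold, adjusted p = 0.0652; 0.0281 without WT replicate 2, in a range of 0.0281 to 0.319 over the alternatives). Its relative Oasl1 read 2.16 and 2.21 in WT and 2.20 and 2.70 in dbTg. Here the groups overlapped by a narrow margin, and the difference was 0.27 (SE 0.24, adjusted p = 0.616). Oas3, the synthetase with the longest chain of repeated domains, read 1.98 and 2.20 in WT and 2.09 and 2.02 in dbTg. Both dbTg values lay between the WT values, with a difference of -0.04 (SE 0.20, adjusted p = 0.945). Oas1b, which RefSeq lists as a transcribed pseudogene in its reference mouse, read 1.55 and 1.96 in WT and 2.00 and 2.12 in dbTg. That is barely a separation (difference 0.30, SE 0.22, adjusted p = 0.517). The family has close paralogs, and how far each probe set reads 1 gene alone is unknown.

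Protein kinase R and the RNA editing enzyme ADAR1 showed smaller differences, neither of them called. Eif2ak2, which encodes the kinase that halts translation on binding double-stranded RNA, read 3.64 and 3.72 in WT and 3.59 and 4.51 in dbTg. Only the dbTg female stood above WT, and the groups overlapped (difference 0.37, SE 0.32, adjusted p = 0.591). Adar, whose product edits adenosine to inosine and is known to keep the cell's own RNA from being sensed, read 2.19 and 2.58 in WT and 3.16 and 2.94 in dbTg. The groups did not overlap, and the dbTg male was the higher (difference 0.67, SE 0.24, adjusted p = 0.201). Over the 7 proteins of this role the median difference was 0.37. It was 0.12 after median centring, which lowered the median of all tested genes from 0.09 to -0.16.

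Downstream effectors had the highest median difference of the 3 roles, 1.05 over 19 genes and 1.11 over the 18 tested. Of the 19, 17 had higher groups that did not overlap, against 23.8% of all genes. The differences between role medians were not tested. Ifitm3, which blocks the entry of enveloped viruses at the endosomal membrane, rose 2.98-fold. It read 5.84 and 5.52 in WT and 7.04 and 7.47 in dbTg, with a gap between the groups wider than the spread within either. The difference was 1.58 (SE 0.21, adjusted p = 0.0221). Its call held after quantile normalization, and ended when replicate number was a block (adjusted p = 0.0743) and without either dbTg array (0.119 and 0.233; range over the alternatives 0.00496 to 0.233). Bst2, the tetherin that holds budding virions at the cell surface, read 2.14 and 1.81 in WT and 3.32 and 2.97 in dbTg. Here the male was the higher in both groups (difference 1.17, SE 0.24, adjusted p = 0.0661). Mx2 read 1.48 and 1.28 in WT and 1.92 and 2.35 in dbTg (difference 0.75, adjusted p = 0.136). Mx1, of the same family of antiviral dynamin-like GTPases, read 1.14 and 0.98 in WT and 1.16 and 2.12 in dbTg and was not tested. Only its dbTg female stood clear of the other arrays. RefSeq lists both Mx genes as transcribed pseudogenes in its reference mouse.

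The IFIT proteins bind viral RNA that lacks the methylation of the host's cap. Ifit1 had the largest difference of all members, 2.55 (SE 0.58, 5.87-fold, adjusted p = 0.0803). It read 2.35 and 1.54 in WT and 3.59 and 5.41 in dbTg, so the dbTg arrays differed from each other by more than the WT arrays did. The difference was 3.46 without dbTg replicate 1 and 1.64 without dbTg replicate 2. Ifit3 read 2.67 and 2.09 in WT and 3.06 and 3.76 in dbTg, separated by a small gap (difference 1.03, SE 0.32, adjusted p = 0.153). Ifit2 read 1.07 and 2.18 in WT and 1.77 and 3.02 in dbTg. The females were higher in both groups, which overlapped, and the difference was 0.77 (SE 0.49, adjusted p = 0.462).

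The 3 genes of the ISG15 system had higher groups that did not overlap, against 23.8% of all genes. ISG15 is a ubiquitin-like protein that is attached to other proteins during the interferon response. Isg15 read 1.98 and 1.76 in WT and 2.77 and 3.09 in dbTg (difference 1.05, SE 0.23, adjusted p = 0.0739). Usp18, which removes ISG15 and damps signalling from the interferon receptor, read 1.81 and 1.55 in WT and 3.04 and 4.40 in dbTg. Its dbTg female lay far above its dbTg male (difference 2.04, SE 0.43, 4.11-fold, adjusted p = 0.0692). Herc6, the main ligase for ISG15 in the mouse, read 2.38 and 2.79 in WT and 3.22 and 4.40 in dbTg (difference 1.22, SE 0.40, adjusted p = 0.168).

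Of 4 genes of nucleotide and ADP-ribose chemistry, 3 had higher groups that did not overlap, against 23.8% of all genes. Rsad2 encodes viperin, which makes a chain-terminating nucleotide, and Cmpk2, its neighbour in the genome, a mitochondrial nucleotide kinase. Rsad2 read 3.12 and 3.07 in WT and 3.71 and 4.32 in dbTg (difference 0.92, SE 0.26, adjusted p = 0.127). Cmpk2 read 2.15 and 2.96 in WT and 2.90 and 3.61 in dbTg, so the WT female lay between the dbTg arrays (difference 0.69, adjusted p = 0.359). Parp14, an ADP-ribosyltransferase, read 4.19 and 3.67 in WT and 5.09 and 5.32 in dbTg. Its groups were well apart (difference 1.28, SE 0.24, adjusted p = 0.0512). Leaving out WT replicate 1 gave an adjusted p of 0.00862 and leaving out WT replicate 2 one of 0.0368, in a range of 0.00862 to 0.409 over the alternatives. Parp9, which works in a complex with the ubiquitin ligase DTX3L, read 1.81 and 1.97 in WT and 2.58 and 3.02 in dbTg (difference 0.91, SE 0.24, adjusted p = 0.108).

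Among the other interferon-stimulated genes, Rtp4 and Lgals3bp stood out by size. Rtp4, a regulator of the interferon response, read 2.50 and 2.40 in WT and 3.85 and 5.08 in dbTg. The WT arrays were close together, far below both dbTg arrays (difference 2.02, SE 0.39, 4.05-fold, adjusted p = 0.0559). Lgals3bp, a secreted glycoprotein that binds galectins, read 4.51 and 3.53 in WT and 5.17 and 6.29 in dbTg. Its male pair differed by 0.66 and its female pair by 2.76 (overall difference 1.71, SE 0.44, adjusted p = 0.107). A second, dimmer probe set of Lgals3bp differed by 0.73. Xaf1, which promotes cell death, read 2.12 and 1.95 in WT and 2.98 and 3.54 in dbTg (difference 1.23, SE 0.26, adjusted p = 0.0698). Samd9l, an interferon-induced inhibitor of growth and translation, read 2.38 and 2.53 in WT and 3.25 and 3.39 in dbTg, close within each group (difference 0.86, SE 0.22, adjusted p = 0.0979). Ifi35 differed by 0.24 (adjusted p = 0.613) with its brighter probe set and by -0.30 with its dimmer one, and by -0.01 after median centring or quantile normalization.

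**Figure D2:**
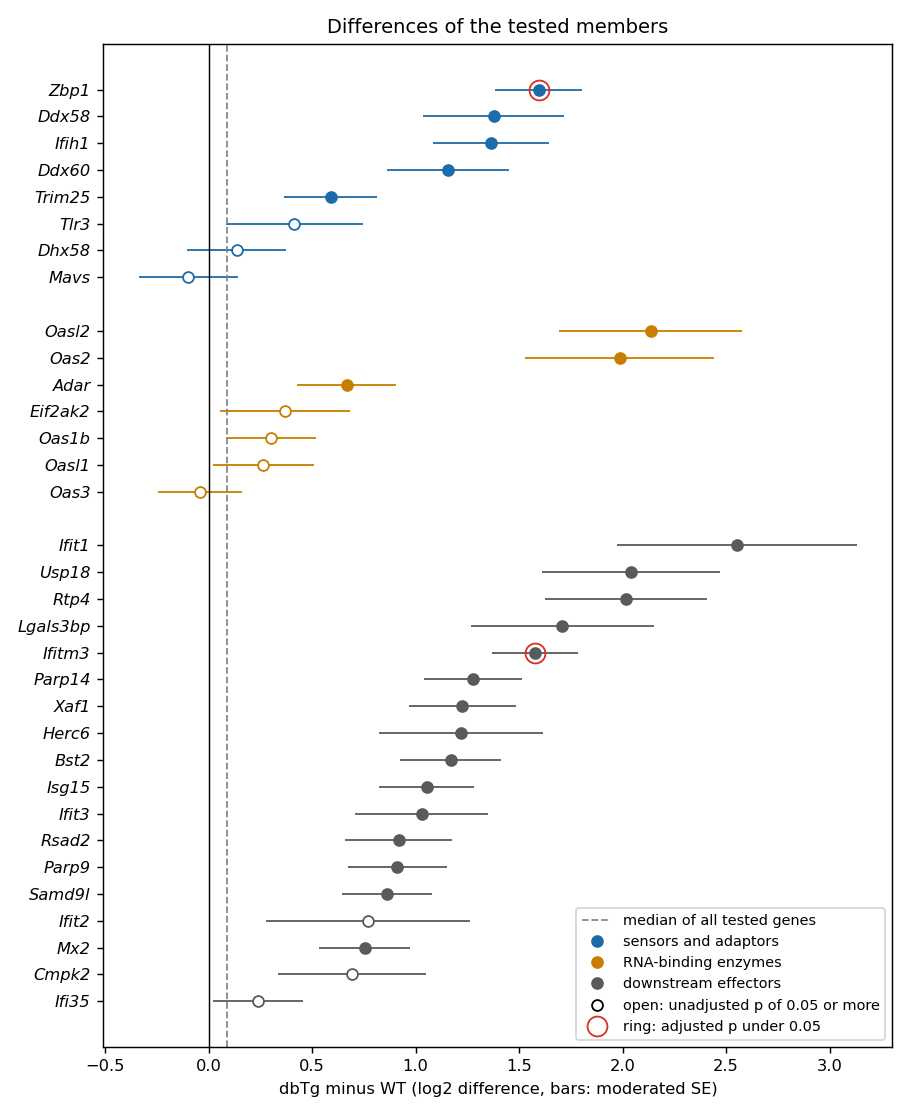
Difference between dbTg and WT on the log2 scale for the 33 tested members, with the moderated standard error as a bar, coloured by role (filled points: unadjusted p under 0.05, ring: adjusted p under 0.05 over all genes, dashed line: median of all tested genes, 0.09). The 2 ringed genes are Zbp1 and Ifitm3, and Mavs and Oas3 alone lie below 0.

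The female dbTg muscle read higher than the male dbTg muscle for 30 of the 34 members, with a median gap of 0.55. Over all 22180 genes the female was higher for 49.3%. Among the WT arrays the female was higher for 16 of the 34 members, with a median gap of -0.015. The gap between the dbTg arrays was widest for Ifit1 at 1.82, followed by Oas2 at 1.49, Oasl2 at 1.37, Usp18 at 1.36, Ifit2 at 1.25 and Rtp4 at 1.23. The exceptions were Zbp1, Adar, Oas3 and Bst2, for which the male was higher. The difference between genotypes was positive for 30 members in the male pair and 32 in the female pair, with medians of 0.76 and 1.20. With 1 animal per sex and genotype, sex cannot be told apart from the animal, and the difference between pairs has no test.

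**Figure D3:**
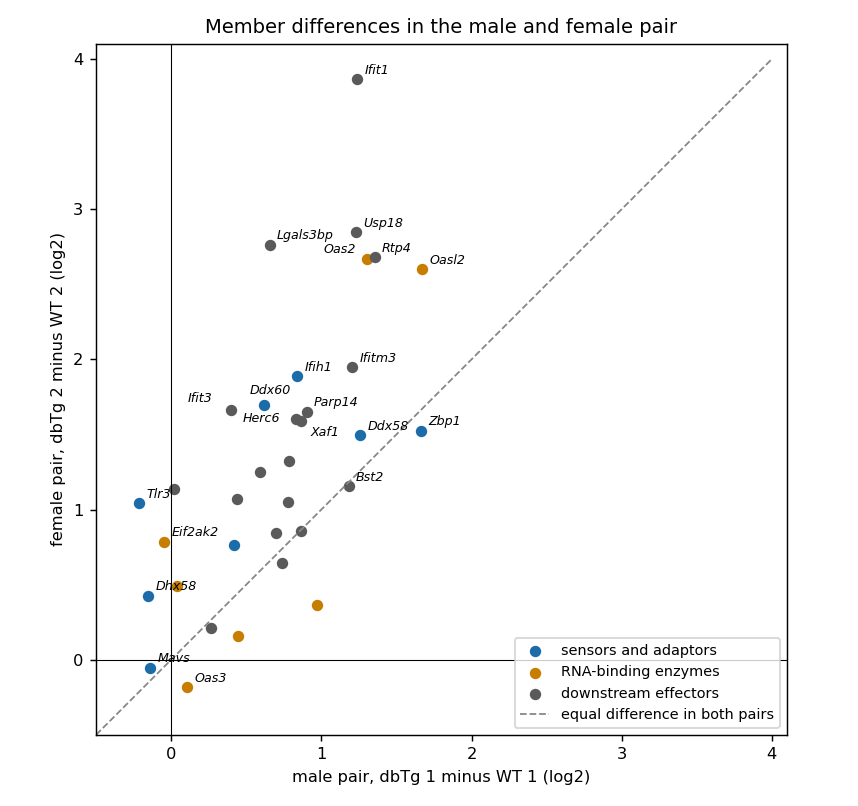
Difference between dbTg and WT on the log2 scale in the male pair (horizontal) and in the female pair (vertical) for the 34 members, coloured by role, with a dashed line where both pairs differ equally. Of the points, 26 lie above the line, with Ifit1 at 1.24 and 3.87 the farthest from it.

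Outside the members, a list of interferon signalling held 4 genes of type I interferon itself, singled out after their values were seen. Both dbTg arrays lay above both WT arrays in none of them, against 23.8% of all genes. Both lay below for Ifnb1, Ifna2 and Ifna4, against 24.1% of all genes. Ifnb1 read 0.97 and 0.76 in WT and 0.63 and 0.46 in dbTg, and Ifna2 1.43 and 1.46 against 1.31 and 0.93, all under the filter. Ifna1 differed by 0.40 (adjusted p = 0.570) and Ifna4 by -0.34 (adjusted p = 0.451). Of the 12 listed genes of interferon signalling with a probe set, 10 were tested. Of these 1 rose and 0 fell, against 2.01% and 0.203% of all tested genes. At an unadjusted p under 0.05, 4 were higher, against 14.0%. With no filter 4 of the 12 were higher in this sense, against 9.20%. The gene that rose was Irf9, the DNA-binding part of ISGF3. It read 1.68 and 1.92 in WT and 3.13 and 2.97 in dbTg, close within each group (difference 1.25, SE 0.22, adjusted p = 0.0437). Its call ended after median centring (adjusted p = 0.0800), quantile normalization (0.0908), with no filter (0.0583), when replicate number was a block (0.0992) and without dbTg replicate 1 (0.264) or dbTg replicate 2 (0.309). Its partner Stat2 differed by 1.33 (adjusted p = 0.0809) and the receptor chain Ifnar2 by 0.78 (adjusted p = 0.164). The feedback inhibitor Socs3 differed by 0.62 (adjusted p = 0.123), and by -0.17 with its dimmer probe set. The WT mean of Socs3, 1.30, lay under the filter, and the dbTg arrays carried it past.

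Of 11 genes that induce interferon, 10 were tested, 1 rose and 0 fell, against 2.01% and 0.203% of all tested genes. At an unadjusted p under 0.05, 6 were higher, against 14.0%, and 5 with no filter, against 9.20%. Sting1 (listed under its older symbol Tmem173), the adaptor of cytoplasmic DNA sensing, read at most 1.89 in WT and at least 3.85 in dbTg, and rose 4.52-fold (difference 2.18, SE 0.23, adjusted p = 0.0116; 0.125 without dbTg replicate 1 and 0.156 without dbTg replicate 2). Irf7, the factor that amplifies interferon output, differed by 1.49 (adjusted p = 0.102), the Toll-like receptor adaptor Myd88 by 0.72 (adjusted p = 0.131) and Tlr7, the sensor of single-stranded RNA, by 0.75 (adjusted p = 0.174). Of 7 genes of RNA turnover and editing outside the members, 0 were called. At an unadjusted p under 0.05, 3 were higher, against 14.0% of all tested genes. They were Samhd1, a nucleotide hydrolase that limits viruses (0.89), the zinc finger antiviral protein gene Zc3hav1 (0.81) and the ribonuclease H2 subunit gene Rnaseh2a (0.73). Both dbTg arrays lay below both WT arrays for 2 of the 7, Adarb1 (-0.53) and Skiv2l (-0.59), against 24.1% of all genes. The list's median was 0.15.

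Genes of related immune programmes were higher in the same muscles. Of 14 interferon-gamma inducible genes with a probe set, 13 had groups that did not overlap, against 23.8% of all genes, and 6 of the 13 tested rose, against 2.01%. One of the 6, Irf8 (adjusted p = 0.0391), had a WT mean of 0.93, under the filter, and with no filter 5 were called. A second probe set of Irf8 differed by only 0.14, with groups that overlapped. It read 1.34 and 1.17 in WT, above the set used, and 1.30 and 1.49 in dbTg, below it. The dbTg arrays thus decided which set stood for Irf8. The median difference of the 14 genes was 1.18. Cxcl9, a chemokine that attracts T cells, differed by 2.59 (adjusted p = 0.00741), and the immunity-related GTPase genes Iigp1, Igtp and Irgm2 by 3.46, 2.26 and 2.06. Of 9 genes of class I antigen presentation, 8 had groups that did not overlap, against the same 23.8%, and B2m, the invariant chain of the class I molecule, rose by 1.65 (adjusted p = 0.00674). The heavy chain gene H2-K1 differed by 1.97 (adjusted p = 0.0826), and the immunoproteasome genes Psmb9 and Psmb10 by 0.89 and 0.63. The WT mean of Psmb9, 1.31, lay under the filter, and the dbTg arrays carried it past. Leaving out dbTg replicate 1 or dbTg replicate 2 ended the calls of Cxcl9 (adjusted p = 0.109 and 0.151), Iigp1 (0.125 and 0.148), Igtp (0.133 and 0.0909), Irgm2 (0.199 and 0.198) and B2m (0.0755 and 0.0900). The call of Igtp also ended when replicate number was a block (0.0589), and that of Irgm2 after quantile normalization (0.0531). In these lists the dbTg female was above the dbTg male for 6 of 14 and 5 of 9 genes. Whether these shares differ from the 30 of 34 members was not tested.

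Markers of macrophages were higher in the same muscles. Of 9, 7 had higher groups that did not overlap, against 23.8% of all genes, and 6 rose, against 2.01% of the tested genes. Among the 6 were the lysozyme gene Lyz2, by 2.32 (adjusted p = 0.00801), and the protease gene Ctss, by 4.23 (adjusted p = 0.000494). The call of Ctss held under every alternative, and that of Lyz2 did not. Summed on the linear scale, where the brightest probe sets weigh most, the macrophage markers read 109 and 102 in WT and 642 and 526 in dbTg. None was at 0, and the lowest reading was 1.39 on the log2 scale. The dbTg male was the higher for 6 of the 9. The same sum over the 34 members was 289.95 and 273 in WT and 493 and 787 in dbTg, so the order of the dbTg arrays was the opposite. The part of macrophages in the members' differences was not tested, and in bulk muscle more cells of a type and more RNA per cell cannot be told apart. Plasmacytoid dendritic cells are known for high interferon output. Of 4 of their markers, 0 had higher groups that did not overlap and 1 had lower ones, against 23.8% and 24.1% of all genes. The defining one, Siglech, read 1.77 and 1.77 in WT and 1.72 and 1.71 in dbTg. Of 9 markers of other leukocytes, 2 had higher and 2 lower groups that did not overlap, near the 23.8% and 24.1% of all genes. Of the 4 tested, 1 rose, Ptprc, by 2.79 (adjusted p = 0.00444), a call that did not hold under every alternative.

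**Figure D4:**
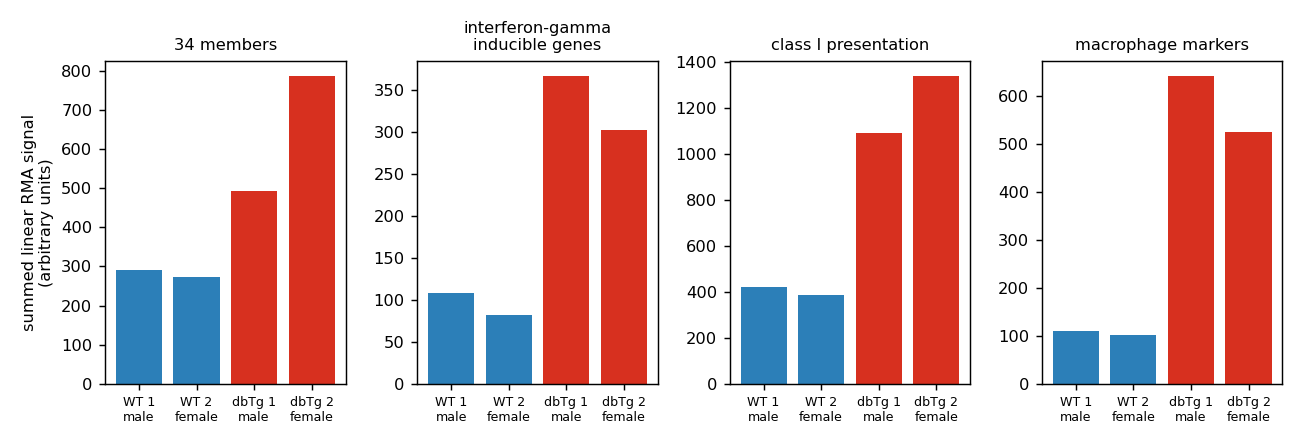
Sum of the linear RMA signal (arbitrary units, bars from 0) on each array over the 34 members, 14 interferon-gamma inducible genes, 9 class I presentation genes and 9 macrophage markers (blue: WT, red: dbTg). The members sum to 787 in the dbTg female and 493 in the dbTg male, and the macrophage markers to 526 and 642.

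The tissue label fitted its markers. All 10 listed genes of skeletal muscle fibres read at least 7.83 on the log2 scale on every array, among them the myosin gene Myh4 and the actin gene Acta1. Their median difference was 0.07. Of 5 endothelial markers, 0 were called and the median difference was -0.47. For 4 of the 5 both dbTg arrays lay below both WT arrays, against 24.1% of all genes. Of 5 fibroblast markers, 0 were called and the median was 0.68. For 4 of the 5 both dbTg arrays lay above both WT arrays, against 23.8%. Array medians over all 41345 probe sets were 1.55 to 1.60, while the upper quartiles were 2.80 and 2.78 in WT and 2.99 and 2.98 in dbTg. Across all tested genes 267 were called higher and 27 lower, 90.8% of calls higher, and after median centring 124 and 65, 65.6% higher. The members' median lay 0.94 above that of all tested genes, a gap that centring cannot alter, and 0.84 above it after quantile normalization.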

How the data were processed

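The deposited log2 values are the authors' RMA summaries from Affymetrix Expression Console (RMA-sketch), per the labels. The sources used here do not name its version or annotation build. Of 41345 probe sets, the platform annotation pairs 23521 with a single symbol, 1814 with more than 1 and leaves 16010 unnamed. Symbols were checked through Entrez identifiers against RefSeq (GRCm38.p6; 23328 matched, 0 changed). Genes whose mean over the 4 arrays reached the 40th percentile, 1.48, were tested with limma 3.58.1 in R 4.3.3 (lmFit, eBayes with a trend, 2 residual and 4.76 prior degrees of freedom), two-sided, with Benjamini-Hochberg adjustment over 13308 genes at 0.05. A permutation test of 2 against 2 arrays cannot go below 0.333. The fit was also run on data simulated with normal noise from its own fitted variances. As these data follow the fit's own model, they cannot show how reliable its calls are on the 4 arrays. SEs are limma's moderated ones.

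The members, role groups and lists were chosen with earlier results of these data known. Named in full were the members and, of each pathway list, up to 4 genes with the smallest p under 0.05, and of each marker list up to 2 by highest mean. Nothing in the labels links same-numbered mice beyond sex. Promoter sequences are RefSeq's.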

Additional observations from a re-analysis of the deposited data

Results flagged for a closer look

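For 4 of the 34 members the male pair and the female pair moved in opposite directions, which was not tested. Tlr3 differed by -0.21 in the male pair and 1.04 in the female pair. Eif2ak2 differed by -0.0455 in the males and 0.78 in the females, and Dhx58 by -0.15 and 0.43. Oas3 alone ran the other way, with 0.11 in the males and -0.19 in the females. Opposite signs were found for 11.8% of the members, and for 8426 of all 22180 genes.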

How the results depend on the processing

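The number of members called was 2 and ranged from 0 to 12 when 1 array was left out. It was 0 with the replicate number as a block, 1 after quantile normalization, and 4 when the filter was the 60th percentile or eBayes was robust. As replicate 1 was male and replicate 2 female in both groups, this block is also one for sex. The gap between replicates 1 and 2 in WT correlated with that in dbTg at 0.05 across all tested genes. Such a correlation over all genes cannot decide whether sex matters for the members. Of the members, 23 were higher at an unadjusted p under 0.05, and 25 with the block. After median centring or quantile normalization 20 were, against 6.77% and 9.63% of all tested genes. The median difference of the tested members, 1.03, ranged from 0.78 to 1.22 without 1 array. It was 0.78 after median centring, 0.82 after quantile normalization, 0.78 in the male pair and 1.25 in the female pair. The comparison within pairs was chosen after seeing the data.

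The median of the sensors and adaptors, 0.87, ranged from 0.62 to 1.13 without 1 array. It was 0.63 after median centring, 0.59 at the 60th percentile filter, 0.52 in the male pair and 1.27 in the female pair. That of the RNA-binding proteins, 0.37, ranged from 0.24 to 0.56. It was 0.12 after median centring, 0.23 after quantile normalization, 0.67 with the 60th percentile filter and 0.49 in the female pair. The median of the effectors, 1.11, ranged from 0.84 to 1.39, and was 0.81 in the males and 1.46 in the females.

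Signs turned for Dhx58 (-0.11 after median centring; -0.14 to 0.42 without 1 array), Ifi35 (-0.0082 after median centring, -0.0053 after quantile normalization, -0.0321 with the mean of its probe sets), Tlr3 (-0.0169 to 0.85 without 1 array), Mavs (-0.34 to 0.14), Eif2ak2 (-0.088 to 0.83) and Oas3 (-0.15 to 0.0702). The cause of these changes was not tested. Over all genes, 267 higher and 27 lower calls became 63 and 2 with the block, 83 and 6 after quantile normalization, 124 and 65 after median centring, and 165 and 7 with no filter. Lower calls were 44 at the 60th percentile filter and 14 without the eBayes trend. Without 1 array there were 4 to 610 higher and 0 to 156 lower calls. No detection calls accompany the values, and 2 arrays a group limit each of them.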
